A study of Mus musculus with 12 samples.

Results

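The 7 genes described here are Zscan4c, Zfp352, Tcstv1, Tcstv3, Usp17la, Usp17lb and Arg2, a group named for the 2-cell stage of the mouse embryo. They were taken by name: every array probe whose gene name was one of the 7, or an older name of it (Gm397 for Zscan4c, Dub1 for Usp17la, Dub1a for Usp17lb), was a member. This gave 12 of the 41174 probes and 7 of the 27670 gene names on the array. Zscan4c, Zfp352 and Tcstv3 had 2 probes each, Tcstv1 had 3, and Usp17la, Usp17lb and Arg2 had 1 each. All 12 probes were well above background on every array of every group, and none of their spots was saturated or had an outlier flag, so no member was lost to the filter on dim probes.

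RNA was measured on Agilent mouse arrays in E14 cells, a single line of mouse embryonic stem (ES) cells, and each RNA came from the cells of 1 well. The treatment, alike in all groups, was esiRNA (a mixture of short interfering RNAs) at 0.33 ng/µl with Lipofectamine for 72 hr. Its target was p400 (gene Ep400), the ATPase of the Tip60-p400 chromatin complex, or Tip60 (gene Kat5, Htatip on the array), the acetyltransferase of that complex, and in control wells EGFP, which is a reporter gene. RNA of p400 knockdown cells was hybridised with EGFP RNA on 4 two-colour arrays of slide 1, with p400 RNA in Cy5 in replicates 1 and 3 and in Cy3 in replicates 2 and 4. For Tip60, 4 single-colour knockdown arrays and 4 EGFP arrays lay on slides 2 and 3, each slide holding both groups. Tip60 replicate 3, which the submitters left out as an outlier in intensity, is not in the reported fit. It is given here as a value and enters some of the alternative fits. The design calls the replicates biological, but the labels do not say whether wells were treated on separate days, so p-values measure the spread between these samples.

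In the mouse, the embryo's own genome is first broadly transcribed at the 2-cell stage, and a set of genes is switched on there and off again soon after. In ES cell cultures a small share of cells passes in and out of a state in which many of the same genes are on. Zscan4 proteins carry a SCAN domain and zinc fingers and are known for a role at telomeres, Zfp352 encodes a zinc finger protein of the early embryo, and the Tcstv genes take their name from the 2-cell stage. Usp17l genes (Dub genes) encode enzymes that remove ubiquitin. Arg2 encodes the mitochondrial arginase, which turns arginine into ornithine and urea. The RNA came from whole wells, so more cells containing these transcripts and more transcript per cell cannot be told apart.

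Several members belong to families of near copies. The reference names 9 Zscan4 genes and pseudogenes (4 of them protein coding), 6 Usp17l genes (5 coding) and 2 Tcstv genes. The array has 2 probes named for a Zscan4 gene, both for Zscan4c. For these and for the Usp17la probe the file lists a further transcript that the reference does not name. Signal from other copies on the Zscan4, Usp17l and Tcstv probes was not tested. One Zscan4c probe (A_52_P363843) and the only probes of the neighbouring Usp17la and Usp17lb genes are printed below, 5′ to 3′ as deposited.

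Zscan4c A_52_P363843: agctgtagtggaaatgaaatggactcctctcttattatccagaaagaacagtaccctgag
Usp17la A_51_P302273: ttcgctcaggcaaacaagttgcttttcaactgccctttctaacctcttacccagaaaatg
Usp17lb A_52_P77234: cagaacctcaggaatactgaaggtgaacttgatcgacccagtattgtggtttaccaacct

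On build mm7, as the files give it, the Zscan4c probe lay on chromosome 7 at 9711998 to 9712057, on the plus strand. The Usp17la probe lay at 100918944 to 100919002 of the same chromosome on the plus strand, and the Usp17lb probe at 100896719 to 100896784 on the minus strand. Exons and untranslated regions were not assigned, since an annotation of mm7 was not used here. No probe of another gene name on the array shared more than 16 bases in a row with a member probe, in either orientation.

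The file lists transcripts of Tcstv3 and of AF067061 for the Tcstv1 probe A_51_P481777, and transcripts of Tcstv1 and Gm20767 for the Tcstv3 probe A_52_P165856. The Tcstv3 probe A_51_P143200 lists Tcstv3 alone. The Tcstv1 probes A_51_P481768 and A_52_P66425 share a run of 40 bases, so they are repeat readings of nearly one target. The sequences below are the probe listed for Tcstv3 alone, the probe listed for Tcstv1 and Tcstv3, and the 25 bases by which A_52_P66425 and A_52_P165856 overlap, with the base that differs in capitals.

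Tcstv3 A_51_P143200: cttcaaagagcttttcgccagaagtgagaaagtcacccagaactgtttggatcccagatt
Tcstv1 A_51_P481777: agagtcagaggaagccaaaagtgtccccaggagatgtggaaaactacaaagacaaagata
Tcstv1 A_52_P66425, bases 1 to 25: gtcttgccagcccAgagtacaaggt
Tcstv3 A_52_P165856, bases 36 to 60: gtcttgccagcccTgagtacaaggt

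Counted from the 5′ end of A_52_P66425, the substitution is A14T, and counted from the 5′ end of A_52_P165856 it is T49A. The remaining 24 bases of the overlap are the same in both probes. On mm7 the Tcstv probes lie on the minus strand of an unplaced sequence (Un_random), A_51_P143200 at 917863 to 917922, A_51_P481777 at 918057 to 918116, A_52_P66425 at 304741 to 304799, A_51_P481768 at 304720 to 304779 and A_52_P165856 at 304775 to 304834.

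The targeted genes were lower on the arrays of their knockdown. An Ep400 probe (A_51_P380165) gave log2 ratios of p400 knockdown over EGFP of -0.65, -0.77, -0.24 and -0.67 in replicates 1 to 4 (-0.58 ± 0.09 SE, limma adjusted p = 0.00526), and the Kat5 probe fell by 1.49 on the log2 scale in Tip60 knockdown (± 0.07, adjusted p = 1.52e-05). Kat5 was lower in p400 knockdown too, with log2 ratios of -0.28, -0.41, -0.27 and -0.76 (-0.43 ± 0.08, adjusted p = 0.0106). Of 3 other Ep400 probes, one fell (-0.72 ± 0.11) but stood at 0.06 in replicate 1, one gave 0.22 ± 0.08 (adjusted p = 0.0787), and one was too dim to test. All 9 ES cell markers on the array, among them Pou5f1 and Nanog, were well above background in every group. Spots well above background numbered from 27598 to 30752 per channel for p400 and from 25073 to 30107 on the single-colour arrays, apart from Tip60 replicate 3 with 22188.

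Knockdown of p400 raised every member. All 12 member probes were higher at an adjusted p under 0.05 (limma, Benjamini-Hochberg over all 27952 probes tested), where 33.1% of all probes tested were called and 18.1% were called higher. The rises ran from 3.10 to 4.52 on the log2 scale, with a median of 3.77 against 0 for all probes tested, and adjusted p ran from 0.000162 to 0.000577. Every member probe rose at least 8-fold, which 64 probes or 0.229% of those tested did. By size of rise they lay between rank 2 and rank 60, among 48 probes of other genes. The ratio was above 0 on all 4 arrays for all 12 probes, as for 26.3% of all probes tested.

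Zscan4c had 2 probes. On A_52_P302671 the log2 ratios of knockdown over EGFP were 3.40, 4.78, 5.24 and 4.08 in replicates 1 to 4, a 20.7-fold rise (4.37 ± 0.28 SE, n = 4 arrays; adjusted p = 0.000577). On A_52_P363843, the probe printed above, they were 3.10, 4.42, 4.12 and 3.62, a 14.1-fold rise (3.81 ± 0.19). Replicate 1 was lowest on both probes, and even there the gene was at least 8-fold higher.

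Zfp352 gave the largest fitted rise of any member on A_51_P136390, with log2 ratios of 4.49, 4.75, 5.01 and 3.81 (22.9-fold, 4.52 ± 0.16; adjusted p = 0.000162). Its other probe, A_52_P106585, gave 3.32, 3.55, 3.39 and 2.33 (8.85-fold, 3.15 ± 0.18). Replicate 4 was lowest on both. The probes disagreed on the size of the rise, by more than the standard error of either. With the deposited log ratios, which use no added offset, the second probe rose by 4.15 ± 0.10. Which member rose most depended on the setting. Without p400 replicate 1, Zscan4c A_52_P302671 rose by 4.83 and Zfp352 A_51_P136390 by 4.65, and with scaled arrays by 4.94 and 4.93.

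The 3 Tcstv1 probes and 2 Tcstv3 probes all rose. Tcstv1 A_51_P481768 gave 2.90, 2.99, 3.74 and 2.77 (8.56-fold, 3.10 ± 0.14), A_51_P481777 gave 3.54, 3.40, 4.51 and 3.23 (12.7-fold, 3.67 ± 0.15), and A_52_P66425 gave 3.35, 3.58, 4.69 and 3.43 (13.6-fold, 3.76 ± 0.20). Tcstv3 A_51_P143200, whose listed transcripts are of Tcstv3 alone, gave 3.65, 3.62, 4.34 and 3.08 (12.8-fold, 3.67 ± 0.14). Tcstv3 A_52_P165856 gave 3.55, 4.47, 5.05 and 4.08 (19.5-fold, 4.29 ± 0.23). Replicate 3 was highest on all 5 probes, and the log2 ratios of Tcstv1 and Tcstv3 overlapped across arrays.

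The ubiquitin protease genes Usp17la and Usp17lb were both higher in p400 knockdown. Usp17la gave log2 ratios of 3.63, 4.62, 4.79 and 3.78 (18.4-fold, 4.20 ± 0.21), and Usp17lb gave 3.24, 3.60, 4.16 and 2.70 (10.7-fold, 3.42 ± 0.19). The ratio was higher for Usp17la than for Usp17lb on each of the 4 arrays.

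Arg2, the metabolic enzyme of the group, rose as the others did. Its log2 ratios were 3.50, 4.02, 4.45 and 3.14 (13.7-fold, 3.78 ± 0.19; adjusted p = 0.000327). Of the 23 other enzymes listed for arginine and polyamine metabolism, 22 were tested in p400 knockdown and 10 changed, 6 up and 4 down, with none past 2-fold, where 35% of all genes tested were called, 20.1% higher and 15% lower. The largest rise among them was that of Azin1, an inhibitor of antizyme (0.83 ± 0.15), and the deepest fall that of Asl, argininosuccinate lyase (-0.54 ± 0.07). Arg1, the cytosolic arginase, did not clear background in EGFP cells on any p400 array and was not called (adjusted p = 0.0624).

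The size of the rise differed between the p400 arrays. The median log2 ratio over the 12 probes was 3.45, 3.82, 4.48 and 3.33 in replicates 1 to 4. Replicate 3 was highest for 10 probes and replicate 2 for the other two, while the lowest ratio was in replicate 4 for 7 probes and in replicate 1 for 5. Replicates 1 and 3, one low and one high, carried the knockdown RNA in the same dye. Scaling the 4 arrays to a common spread left 4 of the 12 probes past the threshold, with rises of 3.30 to 4.94, standard errors of 0.47 to 1.09 and adjusted p from 0.0385 to 0.0597.

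**Figure D1:**
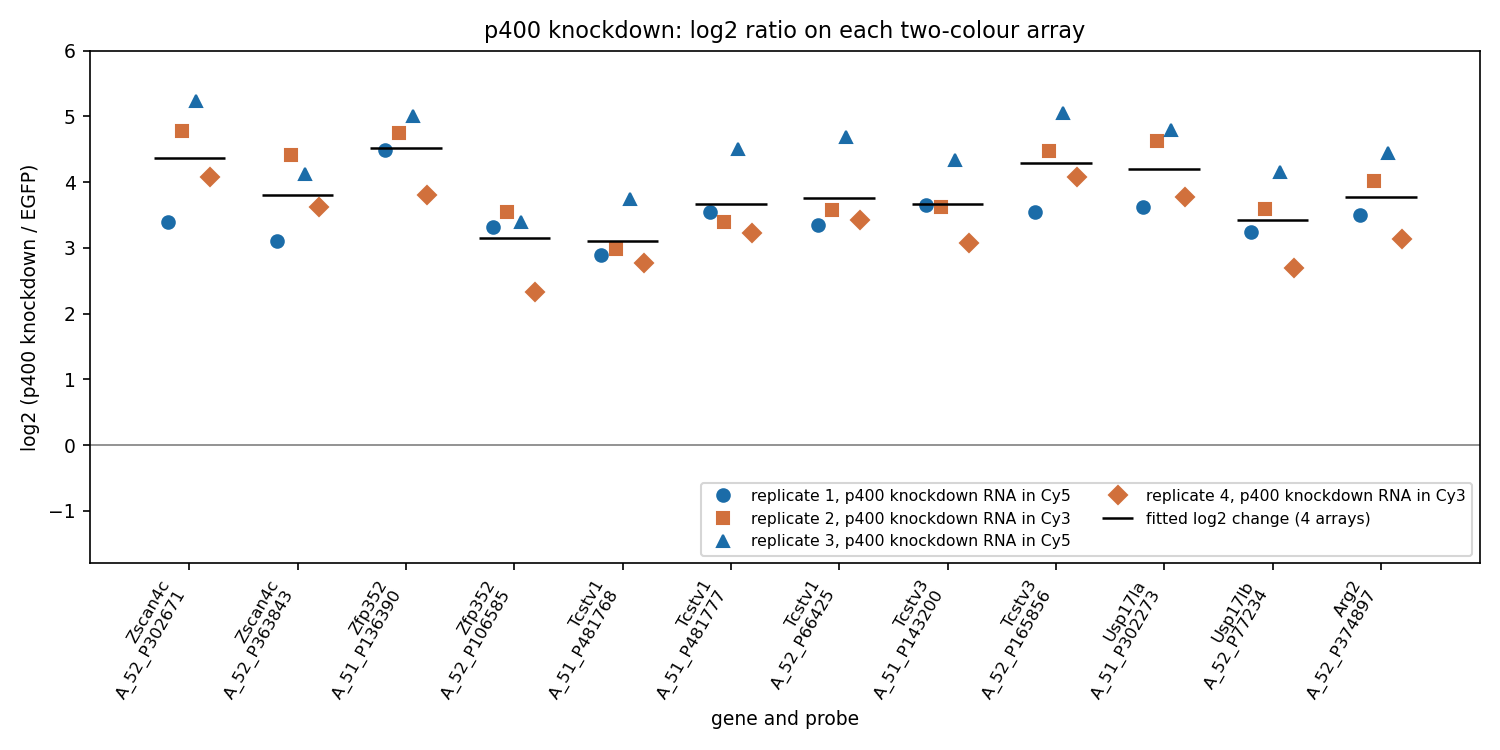
Log2 ratio of p400 knockdown over EGFP for each of the 12 member probes (horizontal axis) on each of the 4 two-colour arrays, with shape marking the replicate, colour the dye of the knockdown RNA, and a black bar the fitted change. Every ratio lies between 2.33 and 5.24, far above 0, and the triangles of replicate 3 are highest for 10 probes.

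Knockdown of Tip60 raised the same 7 genes, and the fitted rise was lower than in p400 knockdown on 10 of the 12 probes. All 12 probes were higher at an adjusted p under 0.05 (limma over 25303 probes), where 22.7% of all probes tested were called and 13.2% were called higher. The rises ran from 2.16 to 3.75 on the log2 scale (4.46-fold to 13.4-fold), with a median of 2.80 against 0 for all probes tested, and adjusted p ran from 3.19e-07 to 9.18e-06. Each of the 12 probes rose at least 4-fold, as did 275 probes or 1.09% of those tested. The ranks by rise lay between 13 and 237. For all 12 probes, Tip60 replicates 1, 2 and 4 lay above all 4 EGFP arrays, by a gap of 1.96 to 3.54, against 18% of all probes tested without overlap in this direction.

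Levels on the single-colour arrays are log2 signals relative to the 75th percentile of the array. Zscan4c A_52_P302671 had EGFP levels of 4.15, 4.10, 4.05 and 4.19 in replicates 1 to 4 and Tip60 levels of 6.20, 6.26 and 6.39 in replicates 1, 2 and 4, a 4.46-fold rise (2.16 ± 0.07 SE, n = 3 and 4 arrays). A_52_P363843 had 1.65, 1.49, 1.33 and 1.66 in EGFP and 3.84, 3.62 and 3.74 in Tip60 knockdown, a 4.60-fold rise (2.20 ± 0.10). These were the smallest Tip60 rises among the members, on both probes of the gene, although A_52_P302671 had the second largest rise of the 12 in p400 knockdown.

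The largest fitted Tip60 rise of the 12 probes was on a Zfp352 probe, or on Tcstv3 A_51_P143200 with normexp and quantile normalization (3.42) and with the series matrix (3.41). Zfp352 A_52_P106585 had EGFP levels of -5.04, -5.24, -5.01 and -4.95 and Tip60 levels of -1.29, -1.41 and -1.23, a 13.4-fold rise (3.75 ± 0.08). A_51_P136390 had -2.36, -2.15, -2.44 and -2.16 in EGFP and 1.36, 1.09 and 1.29 in Tip60 knockdown, an 11.5-fold rise (3.53 ± 0.10). The larger value depended on the processing: with normexp and quantile normalization A_52_P106585 rose by 2.34 ± 0.07, while A_51_P136390 rose by 3.13 ± 0.08.

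Among the Tcstv probes one stood apart in Tip60 knockdown. Tcstv3 A_51_P143200 had EGFP levels of -0.54, -0.52, -0.62 and -0.61 and Tip60 levels of 2.91, 3.02 and 2.99, an 11.7-fold rise (3.55 ± 0.06). The other Tcstv3 probe, A_52_P165856, had 3.27, 3.42, 3.16 and 3.30 in EGFP and 5.86, 5.84 and 5.95 in Tip60 knockdown, a 6.04-fold rise (2.60 ± 0.07). That value lay within the range of the 3 Tcstv1 probes, which rose by 2.69 ± 0.08 (A_51_P481768), 2.52 ± 0.08 (A_51_P481777) and 2.61 ± 0.06 (A_52_P66425). A_51_P143200 is the probe listed for Tcstv3 alone, and A_52_P165856 the one that also lists Tcstv1 and overlaps A_52_P66425. Their 95% confidence intervals for the rise, 3.42 to 3.68 and 2.42 to 2.77, did not overlap. In p400 knockdown the fitted values were 3.67 and 4.29, with intervals (3.34 to 4.01 and 3.74 to 4.84) that overlapped, and the ratio was higher on A_51_P143200 in replicate 1 and on A_52_P165856 in the others.

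Usp17la had EGFP levels of 1.62, 1.73, 1.60 and 1.71 and Tip60 levels of 4.94, 4.88 and 4.99, a 9.65-fold rise (3.27 ± 0.06). Usp17lb had -1.62, -1.63, -1.70 and -1.53 in EGFP and 1.80, 1.87 and 1.88 in Tip60 knockdown, an 11.0-fold rise (3.47 ± 0.06). Arg2 had -1.78, -2.06, -1.76 and -1.95 in EGFP and 0.88, 1.16 and 1.03 in Tip60 knockdown, a 7.51-fold rise (2.91 ± 0.10). For these 3 genes, as for every member probe, each knockdown array stood well clear of the control arrays. Of 21 other arginine and polyamine enzymes tested, 4 rose and 1 fell, where 24.3% of all genes tested were called, with Sat1, a polyamine acetyltransferase, the largest rise (0.44 ± 0.09).

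The Tip60 values held on each slide. On slide 2, with replicates 2 and 4 of Tip60 knockdown and 1 and 3 of EGFP, the difference in mean level ran from 2.19 to 3.70 over the 12 probes, and all 12 were called in a fit to that slide alone. On slide 3, with 1 Tip60 array in the fit against EGFP replicates 2 and 4, it ran from 2.05 to 3.81. Tip60 replicate 3, left out of the fit, stood above all 4 EGFP arrays on all 12 probes, by a median change of 2.59 from the EGFP mean.

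**Figure D2:**
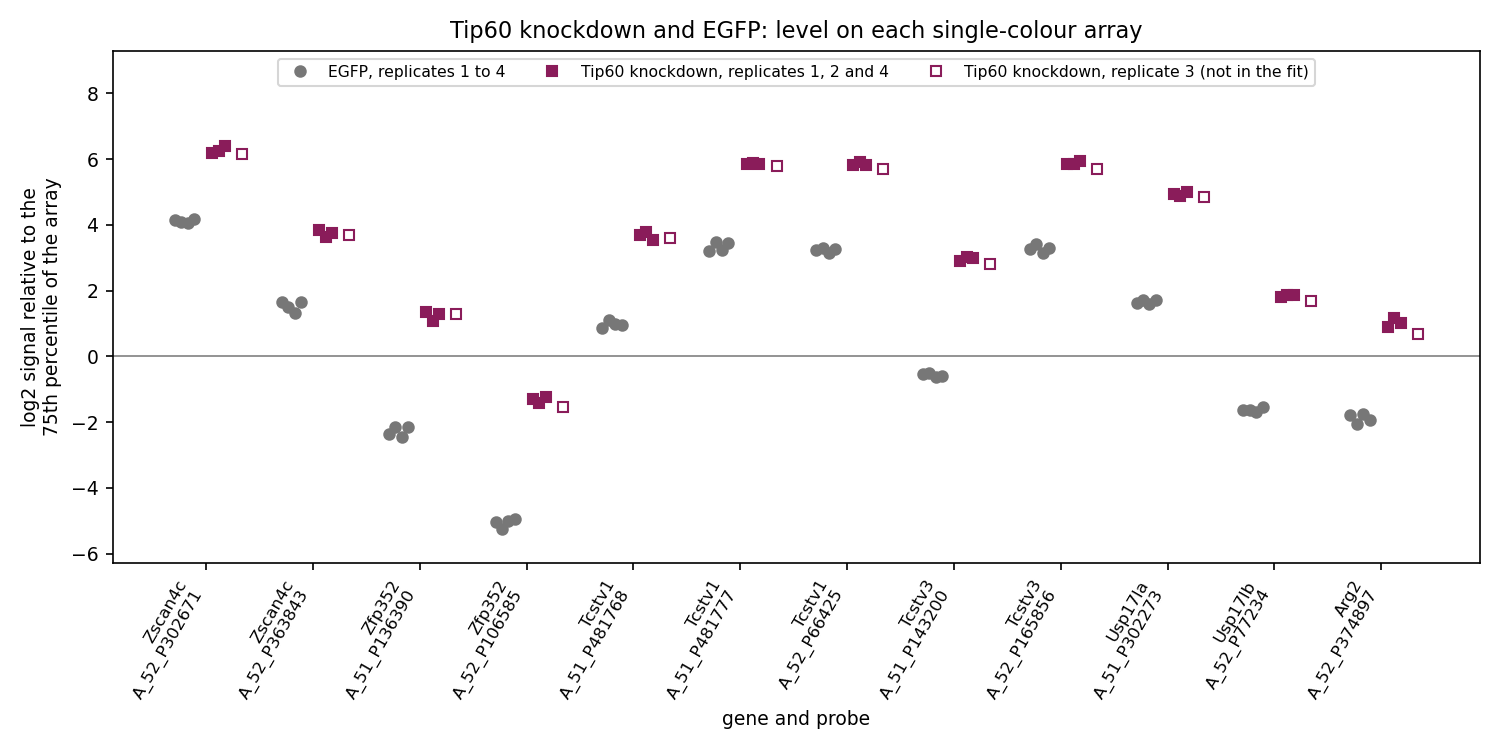
Log2 signal relative to the 75th percentile of each array for the 12 member probes (horizontal axis) on the 4 EGFP arrays (grey circles), Tip60 replicates 1, 2 and 4 (filled squares) and Tip60 replicate 3 (open squares). For every probe the squares lie above the circles, and the smallest gap between the fitted groups is 1.96; heights of different probes are not comparable, since each probe has its own brightness.

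The size of the rise in the 2 knockdowns was compared probe by probe, as the p400 change minus the Tip60 change, with p-values adjusted over the 25136 probes tested in both. Of the 12 member probes 5 were called, all with the larger rise in p400 knockdown, where 3.45% of all probes were called and 1.99% in this direction. Both Zscan4c probes were among them, with differences of 2.22 (95% interval 1.51 to 2.92, adjusted p = 0.032) on A_52_P302671 and 1.61 (1.09 to 2.14, adjusted p = 0.032) on A_52_P363843. The other called probes were Tcstv3 A_52_P165856 (1.69, 1.11 to 2.27), Tcstv1 A_51_P481777 (1.15, 0.73 to 1.58) and Tcstv1 A_52_P66425 (1.15, 0.64 to 1.66, adjusted p = 0.0467).

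For the other 7 probes the difference was not called. Zfp352 was split between its probes, at 0.99 (0.52 to 1.46, adjusted p = 0.0517) on A_51_P136390 and -0.60 (-1.09 to -0.11, adjusted p = 0.143) on A_52_P106585, and the second turned to 0.40 with the deposited p400 log ratios. Usp17la differed by 0.93 (0.40 to 1.47, adjusted p = 0.0736) and Arg2 by 0.87 (0.34 to 1.40, adjusted p = 0.0829). Tcstv1 A_51_P481768 differed by 0.41 (0.02 to 0.80). Usp17lb gave -0.04 (-0.53 to 0.45) and the probe listed for Tcstv3 alone 0.12 (-0.24 to 0.49), the 2 intervals of these 12 that hold 0. The intervals are not adjusted for the number of probes.

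The test compares arrays of 2 kinds, each normalized in its own way, and it rests on few arrays. Without p400 replicate 3, which had the largest ratios, 0 of the 12 differences were called (8 had an unadjusted p under 0.05), and 0 of all probes (5527 unadjusted). Without Tip60 replicate 1, 3 were called, and with normexp and quantile normalization for the Tip60 arrays 1 was. With Satterthwaite's degrees of freedom in place of the smaller ones, 8 were. Both Zscan4c differences kept their sign in all 15 alternatives, between 1.36 and 2.68, and each lost the call in 2 of them. Among the other called probes, Tcstv1 A_52_P66425 lost the call in 9 of the 15, Tcstv1 A_51_P481777 in 3 and Tcstv3 A_52_P165856 in 2.

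**Figure D3:**
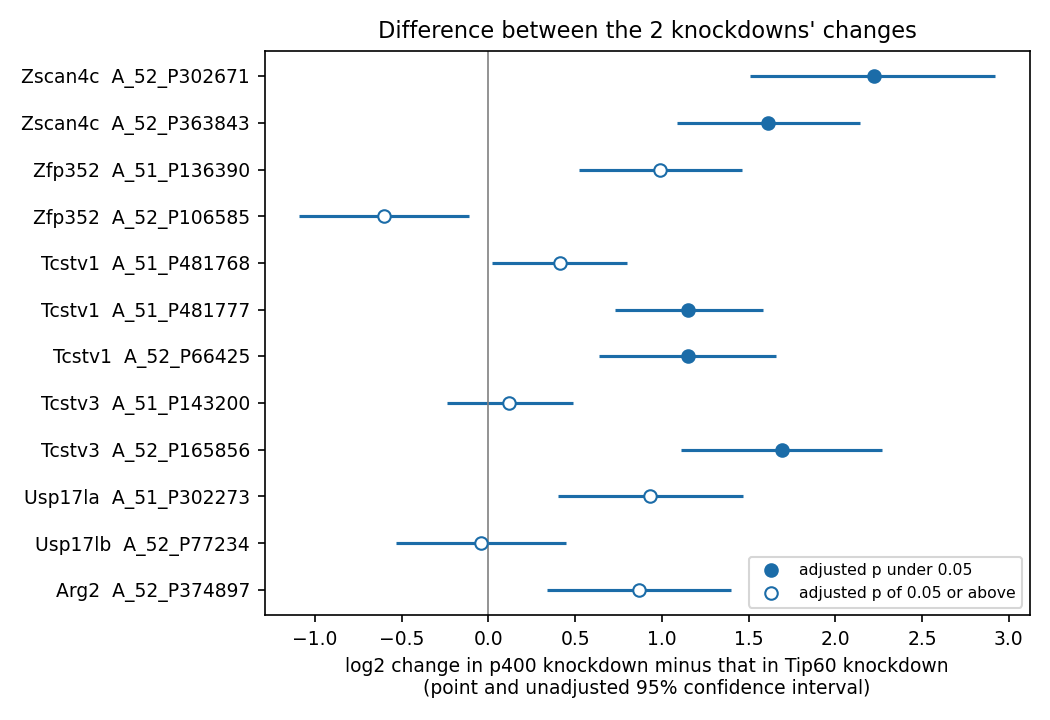
Difference between the log2 change in p400 knockdown and that in Tip60 knockdown for each member probe (vertical axis), with its unadjusted 95% confidence interval; filled points passed an adjusted p of 0.05. The 5 filled points are the Zscan4c probes, 2 Tcstv1 probes and 1 Tcstv3 probe, between 1.15 and 2.22, and the intervals of Usp17lb and Tcstv3 A_51_P143200 hold 0.

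Other genes of the 2-cell-like state were taken from a list of 47, of which 20 were on the array. In p400 knockdown 16 could be tested, each by its brightest probe, and 15 rose and 1 fell, where 35% of all genes tested were called and 20.1% rose. Their median change was 1.56 (0.01 for all genes tested). The largest rises were in AF067063 (18.7-fold, 4.23 ± 0.16), Gm428, a homeodomain-like gene (16.5-fold, 4.05 ± 0.16), Gm5662 (14.7-fold, 3.88 ± 0.17) and Sp110, a nuclear body protein (12.8-fold, 3.68 ± 0.14). The gene that fell was Zfp750, a zinc finger factor of the epidermis (-0.33 ± 0.08). Lmx1a and Obox3 did not clear background in EGFP cells on any p400 array. Their fitted changes (0.82 and 1.02) lay below the median, so setting both to their bound could not change it. Of the 14 genes without Lmx1a and Obox3, 13 rose and 1 fell. Among these, Tdpoz1, Naalad2 and Obox6 cleared background in EGFP RNA on 2, 1 and 2 p400 arrays. That is below the 3 needed, so they too were tested only through their level in knockdown RNA. The 11 genes that cleared background in EGFP RNA on all 4 arrays had a median change of 2.22.

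In Tip60 knockdown 15 genes of that list could be tested, and 14 rose and 1 fell, where 24.3% of all genes tested were called and 14.8% rose. The median change was 3.00. It was 2.20 with 5 genes set to their bound, those whose EGFP signal did not clear background on any single-colour array. Those 5 were tested only through their level in knockdown RNA. Of the 10 genes that cleared background on some single-colour EGFP array, 9 rose and 1 fell. Usp17lc, the third gene of the Usp17l family on the array, rose 11.5-fold (3.53 ± 0.15), AF067063 11.6-fold (3.53 ± 0.10) and Sp110 11.1-fold (3.48 ± 0.10). Tdpoz1, a gene with a POZ domain, did not clear background in EGFP cells on any single-colour array and rose at least 4.61-fold. Zfp750 fell by 0.82 (± 0.14).

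Usp17lc, a relative of Usp17la and Usp17lb, rose 4.50-fold in p400 knockdown (2.17 ± 0.20), and the p400 change minus the Tip60 change was -1.35 (-1.95 to -0.76, adjusted p = 0.0463), where the values were 0.93 for Usp17la and -0.04 for Usp17lb, neither called. The larger rise was called in Tip60 knockdown also for Tdpoz1 (-2.57), Pramel6 (-2.49), Lmx1a (-2.45), Naalad2 (-1.84) and Pramel7 (-1.33) of this list. It was called in p400 knockdown for Gm5662 (1.89) and Gm428 (1.05). Tdpoz1, Pramel6, Lmx1a and Naalad2 did not clear background on any single-colour EGFP array. Their differences and calls use the fitted Tip60 values and not bounds. As bounds, their Tip60 rises were at least 2.20, 2.65, 1.27 and 0.63, in that order. Their fitted p400 changes were 1.37, 0.96, 0.82 and 0.90, so for Naalad2 the bound lay below the p400 change. Differences from the bounds were not tested. The Usp17l genes were not tested against each other. Without p400 replicate 3 no probe's difference was called by limma (5527 had an unadjusted p under 0.05). The medians moved with the processing. With the deposited log ratios the list's median in p400 knockdown was 3.52 in place of 1.56, and with normexp and quantile normalization its median in Tip60 knockdown was 1.35 in place of 3.00. The members' medians under the same settings were 3.99 and 2.64.

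**Figure D4:**
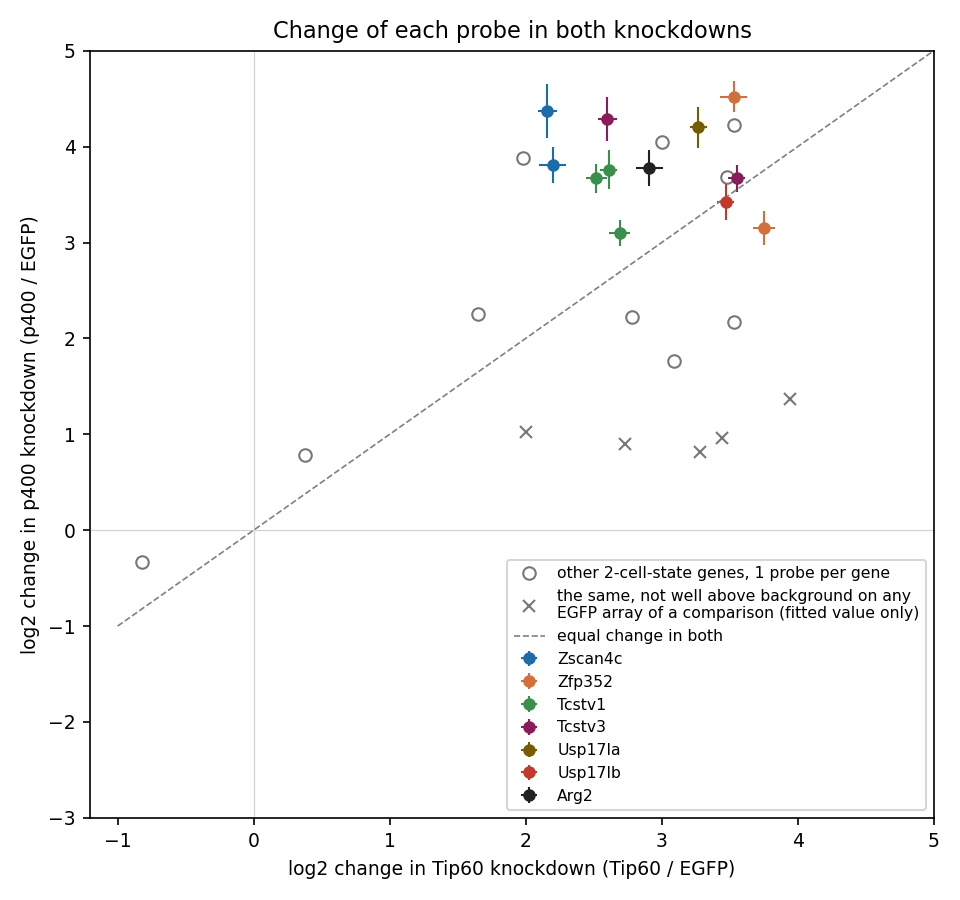
Log2 change in Tip60 knockdown (horizontal axis) against that in p400 knockdown (vertical axis) for the 12 member probes (coloured points with standard errors) and for other 2-cell-state genes (open circles, or crosses for those whose EGFP signal did not clear background on any array of a comparison). The member points lie between 3.10 and 4.52 in p400 knockdown and between 2.16 and 3.75 in Tip60 knockdown, most above the dashed line of equal change, with Zscan4c A_52_P302671 farthest above it among the members.

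Regulators of the 2-cell-like state, such as repressors and activators of these genes in ES cells, were a separate list of 30, all tested. In p400 knockdown 5 rose and 3 fell, where 20.1% of all genes tested rose and 15% fell, with a median change of 0.05. The rises were in Nelfa, a subunit of the negative elongation factor (5.85-fold, 2.55 ± 0.13), Dppa2, a DNA-binding protein of pluripotent cells (2.26-fold, 1.18 ± 0.10), Rif1 (1.12 ± 0.20) and Trim28, a corepressor of zinc finger proteins (0.63 ± 0.09), and 1 smaller one. Cbx3, a heterochromatin protein, fell most (-0.70 ± 0.06), followed by Chaf1b, a subunit of a histone chaperone (-0.31 ± 0.07), and Smchd1 (-0.23 ± 0.07). In Tip60 knockdown, of the 30 only Nelfa (2.37-fold, 1.24 ± 0.07) and Dppa2 (1.47-fold, 0.55 ± 0.07) rose and 0 fell by limma (3 lower at an unadjusted p under 0.05), where 14.8% of all genes tested rose and 9.5% fell. The p400 change was larger than the Tip60 change for both, by 1.30 for Nelfa (adjusted p = 0.0273) and 0.63 for Dppa2 (adjusted p = 0.0493). Without p400 replicate 3 neither was called, as no probe was (5527 had an unadjusted p under 0.05). Array type and knockdown cannot be told apart in these differences either.

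Markers of other cell types also moved. Of all genes tested, 20.1% rose and 15% fell in p400 knockdown, and 14.8% rose and 9.5% fell in Tip60 knockdown. Of 10 endoderm markers, 7 rose and 0 fell in p400 knockdown, and 7 of 9 tested rose and 0 fell in Tip60 knockdown (limma; 0 lower at an unadjusted p under 0.05 in either). Their summed signal, in multiples of the 75th percentile of the array, was 6.27 to 8.82 in EGFP and 11.5 to 16.2 in p400 RNA, and 11.8 to 14.6 in EGFP and 16.8 to 20.9 in Tip60 RNA. Afp, a product of visceral endoderm, did not clear background in EGFP cells on any array. Trophectoderm markers summed to 27.1 to 28.8 in EGFP and 40 to 43.6 in p400 RNA (6 of 10 rose, 1 fell), and to 78.3 to 88.5 in EGFP and 83.3 to 99.8 in Tip60 RNA (4 of 10 rose, 1 fell). Fibroblast markers summed to 9.51 to 12 in EGFP and 11.6 to 16.5 in p400 RNA (3 of 7 tested rose, 1 fell), and to 17.1 to 19 in EGFP and 16.8 to 17.3 in Tip60 RNA (2 rose, 1 fell). The fibroblast sums overlapped between groups in both knockdowns, and the trophectoderm sums in Tip60 knockdown. The sums of ES cell markers also overlapped, at 220 to 256 in EGFP and 222 to 271 in p400 RNA. For Tip60 the ES cell sums were 240 to 271 in EGFP and 243 to 248 in Tip60 RNA. The ranges leave out the pairing of the channels on each p400 array, so an overlap there does not show a lack of change. The fibroblast sums took in 10 genes, with those too dim to test. The part of these markers in the members' rises was not tested.

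To name the genes that moved most like the members, each gene's 7 changes (the 4 p400 ratios, and Tip60 replicates 1, 2 and 4 against the EGFP mean) were compared with the median profile of the 7 members over 16843 genes. The nearest non-members by root mean square difference were Gm11487 (0.16 on the log2 scale), Gm428 (0.23), 0610040J01Rik (0.26), Gm16367 (0.38) and Csf2rb, a cytokine receptor subunit (0.39). Gm11487 changed by 4.12 in p400 and 3.12 in Tip60 knockdown, and 0610040J01Rik by 4.33 and 2.74. The members' own distances from their median ran from 0.26 for Usp17la to 0.69 for Usp17lb, and 23 non-member genes lay within the largest of these.

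Promoters, as the 250 bases before the start in RefSeq on GRCm38.p6, were at hand for Zscan4c, Zfp352, Usp17la and Usp17lb. They were searched on both strands for TAATCC, a core recognised by bicoid-class homeodomain proteins, and for TATAAA, the TATA box. The Zfp352 promoter (chromosome 4, 90218570 to 90218819, plus strand) is shown because it is built of repeats, with each TAATCC in capitals. The Usp17la and Usp17lb promoters (chromosome 7, 104856766 to 104857015, plus strand, and 104842584 to 104842833, minus strand) are shown because they are near copies, with TATAAA in capitals.

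Zfp352 promoter: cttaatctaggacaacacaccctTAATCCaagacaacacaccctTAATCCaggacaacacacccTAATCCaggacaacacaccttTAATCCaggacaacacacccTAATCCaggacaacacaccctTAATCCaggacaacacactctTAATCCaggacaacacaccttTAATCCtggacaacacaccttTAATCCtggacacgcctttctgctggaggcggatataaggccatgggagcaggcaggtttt
Usp17la promoter: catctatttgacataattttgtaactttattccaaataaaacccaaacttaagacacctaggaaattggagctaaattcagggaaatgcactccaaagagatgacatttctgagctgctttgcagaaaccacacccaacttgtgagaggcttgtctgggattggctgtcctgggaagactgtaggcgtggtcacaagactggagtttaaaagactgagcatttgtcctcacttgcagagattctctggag
Usp17lb promoter: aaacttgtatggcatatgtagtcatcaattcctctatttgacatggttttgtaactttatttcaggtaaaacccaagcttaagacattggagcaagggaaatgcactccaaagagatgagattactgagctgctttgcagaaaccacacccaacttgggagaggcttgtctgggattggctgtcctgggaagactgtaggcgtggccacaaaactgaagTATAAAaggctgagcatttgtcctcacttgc

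TAATCC occurred 9 times in the Zfp352 promoter and in none of the other three. Of 32851 promoters of this length in the table, 6.25% held it at least once, and 1 held it 6 or more times. The repeat unit AATCCAGGACAACACA, which overlaps TAATCC, was picked from the Zfp352 promoter itself, as a most repeated stretch of that length holding AATCC. It occurred 6 times there and in no other promoter of the table. Since it was picked from this promoter, its absence from the others is a description and not a test. TATAAA occurred once in Zscan4c, 54 bases before the start, and once in Usp17lb, 31 bases before it, as in 12.4% of all promoters. The Usp17la and Usp17lb promoters were the same at 72.9% of aligned positions, against 42.4% to 48.1% for the other pairs of these 4. The motifs are matches of letters, and binding at them was not measured.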

How the data were processed

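The scanner files were made by the authors with Agilent Feature Extraction 9.5.1.1 and carry probe positions on mm7, per the file headers. The deposited mean and background intensity of each p400 spot was corrected with normexp (offset 50) and normalized within arrays by loess (limma 3.58.1 in R 4.3.3), and the model held the knockdown, turned by dye, and a dye term. For Tip60, the deposited processed signal, an intensity, was taken as log2 minus the 75th percentile of its array. The deposited LogRatio column holds log10 ratios, red over green, and the authors' series matrix log2 values of unstated normalization; both served as alternatives. Probes were tested that cleared background (flag of the scanner software) in at least 3 replicates of the knockdown or the EGFP RNA, so a gene dim in EGFP RNA was tested only where bright in knockdown RNA. In the difference test, the degrees of freedom were those of whichever fit had fewer. Adjusted p values are two-sided Benjamini-Hochberg values over all probes tested by limma, with a threshold of 0.05. A bound ("at least") sets the mean of the knockdown arrays against whichever is higher on each EGFP array, the dim probe's own signal or the weakest signal that cleared background. Each fit was run on simulated data in which every probe varied on its own, so shifts of whole arrays were not tested by it.

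The members, lists and tests were chosen with earlier results of these data known. Beyond the members, the rule for naming genes took Ep400 and Kat5, up to 4 rises and 4 falls of largest size per list, and the 5 genes nearest to the members' median profile. Not every such gene is named. Arg1, Afp, Lmx1a, Obox3, Obox6, Pramel6, Pramel7 and Naalad2 were named after their values were seen. Probes were named through RefSeq accessions (22951), symbols (6659) or synonyms (3109), or kept their name in the file (8455).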

Additional observations from a re-analysis of the deposited data

Results flagged for a closer look

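For 5 member probes the rise differed between the knockdowns in a test of the difference itself. The p400 change exceeded the Tip60 change by 2.22 and 1.61 on the Zscan4c probes A_52_P302671 and A_52_P363843, on the log2 scale. It did so by 1.15 on each of the Tcstv1 probes A_51_P481777 and A_52_P66425, and by 1.69 on Tcstv3 A_52_P165856. Probes of the same gene disagreed for Tcstv1 and Tcstv3, since Tcstv1 A_51_P481768 (0.41) and Tcstv3 A_51_P143200 (0.12) were not called. The knockdowns were measured on arrays of different kinds and slides, so array type and knockdown cannot be told apart in these differences.

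Tip60 replicate 3, which the comparison does not use, also carried the rise: 12 of 12 member probes stood above all 4 EGFP arrays there.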

How the results depend on the processing

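All 12 member probes kept their direction and their call under the 17 alternatives run for Tip60 knockdown, and their direction under the 12 run for p400 knockdown, where scaling between arrays left 4 called and the others all 12. With one probe per gene, 7 of 7 members were called in each knockdown. Of the other 2-cell-state genes in Tip60 knockdown, 9 were called when only probes well above background on all 7 arrays were tested. The calls in the difference were the least stable: 5 as reported, 8 with Satterthwaite's degrees of freedom, 1 with normexp and quantile normalization for Tip60, and 0 (without p400 replicate 3) to 7 when a replicate was left out. Differences that turned sign were those of Zfp352 A_52_P106585, to 0.40 with the deposited log ratios and 0.81 with normexp and quantile, Usp17lb, to 0.32 and 0.29, and with a replicate left out between -0.27 and 0.19, and Tcstv3 A_51_P143200, with a replicate left out between -0.05 (without p400 replicate 3) and 0.30; none was called as reported.

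Over all probes, calls in p400 knockdown numbered 9262 (54.6% higher), 3410 with arrays scaled (72.6%), 4572 without replicate 2, 12170 with the deposited log ratios (43.2%) and 13501 with median centring (29%). In Tip60 knockdown they numbered 5743 (58.2% higher), 9327 relative to the array median (20.1%), 5010 with normexp and quantile (44.7%), 4875 with the series matrix (44.9%), 2238 within slide 2 and 3635 with no filter. Centring on the array median moved the median of all probes in Tip60 knockdown by -0.21 on the log2 scale, and the members' median to 2.59. Called differences numbered 866, and 3310 (Satterthwaite), 121 (normexp and quantile), 0, 259 and 426 without p400 replicate 3, Tip60 replicate 1 and Tip60 replicate 4.

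The labels do not say whether replicate numbers pair wells of the single-colour arrays. The correlation of deviations of same-numbered arrays was -0.373, -0.108 and -0.246. Those arrays lay on different slides, so the values cannot show whether the numbers pair wells. With the replicate block 2246 probes were called (82.5% higher), among them all 12 member probes. The number of arrays limits the precision, and the offset of 50 shrinks changes of dim probes in the p400 values only.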
